A study of Homo sapiens with 6 samples.

Results

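Antisense noncoding genes are transcribed from the strand opposite to a neighbouring gene, and many start from the same stretch of DNA as that gene and run away from it. They were chosen here by name: rows of the deposited gene table whose symbol ends in -AS and a number, and whose mean over the 6 libraries was at least 20. Of 17187 gene rows, 280 had such a name and 169 reached that level. Each was set beside its sense partner, the gene named before -AS, and 159 of the 169 partners had a row of their own.

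The cells were HT-1080, an established human fibrosarcoma line labelled as wild type. For 8 h, 3 libraries' cells were exposed to 10 ng/ml of recombinant interferon gamma (IFNg), and those of 3 control libraries to PBS. The series concerns how CD8+ T cells, which release IFNg, bear on ferroptosis of tumour cells, and the comparison asks which transcripts of the tumour cells differ after IFNg. Total RNA was depleted of ribosomal RNA and sequenced from a stranded library, a format that also keeps unpolyadenylated noncoding transcripts. Whether the 3 libraries of a group are separate cultures is not stated in the labels. The p-values thus reflect the spread among these 6 samples and that spread may be technical.

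Values are normalised read counts, that is, whole reads divided by 1 size factor per library and not by gene length. Libraries held 59556948 to 83501954 reads, and 1 read was worth 0.835 to 1.16 normalised counts. The mesenchymal markers VIM and CD44 averaged 369946 and 119168 in IFNg cells and 380457 and 131064 in control cells. The leukocyte marker PTPRC averaged 15.2 in IFNg cells and 6.43 in control cells. Of the epithelial markers, KRT18 averaged 11344 in IFNg cells and 10710 in control cells, and KRT19 8.95 and 0.324. EPCAM and CDH1 had no row. IRF1, a transcription factor induced by IFNg, averaged 28355 in IFNg cells and 624 in control cells.

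IFNg acts through a cell surface receptor and induces genes whose promoters hold GAS elements, among them IRF1, whose product binds ISRE elements. Antisense transcripts that start beside a gene can share its promoter, and others arise inside the gene body from starts of their own. Some are known to act on their neighbour or elsewhere, but for most members no function is established.

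By GENCODE 29 gene models on GRCh38, the exons of 115 of the 169 antisense genes overlapped exons of the partner on the opposite strand. In another 25 only the spans overlapped, in 21 the genes lay apart with their starts facing, and 8 could not be placed. In 104 members (61.5%) an antisense start and a sense start lay within 1000 bases of each other. RefSeq now names 15 of the members with the ending -DT, for divergent transcript. Members were chosen by name, and GENCODE types SPTY2D1-AS1 as protein coding and CCDC74B-AS1, CRYM-AS1, TP73-AS1 and ZNRD1-AS1 as transcribed pseudogenes. The library kit keeps strand, but whether strand was used in counting is not given in the sources used here. For pairs with overlapping exons, reads of the shared bases therefore cannot be assigned to one gene with certainty.

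The members were mostly low. Their means ran from 21.1 to 42094 with a median of 107, against a median of 1774 over the 13446 kept rows of the table with a mean of at least 20. Of the 169, 166 had a read in each library. Just inside the level used to choose them were PGM5-AS1 (mean 21.1) and KDM5B-AS1 (21.8), and just outside were DNMBP-AS1 (19.6) and SLC7A11-AS1 (19.4). SLC7A11-AS1 lies opposite SLC7A11, the cystine transporter gene of system xc-. It was read at 31.6, 42.4 and 10.4 in IFNg cells and 6.43, 20.04 and 5.84 in control cells, groups that overlapped (limma adjusted p = 0.501). SLC7A11 itself fell, with means of 4914 ± 747 in IFNg cells and 9855 ± 365 in control cells (SD, n = 3 each), a log2 difference of -1.01 ± 0.11 (limma adjusted p = 0.000127).

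Only 3 of the 169 antisense genes rose after IFNg, and 0 fell in limma, at an adjusted p of 0.05. These were EPHA1-AS1, USP30-AS1 and C1RL-AS1. In bulk RNA, fewer cells with a transcript and less of it per cell cannot be told apart. The members' share called was 1.78%, against 4.32% of all 15546 kept rows (3.27% higher and 1.05% lower) and 4.92% of kept rows with a mean of at least 20 (3.72% higher and 1.2% lower). In limma 14 of the 169 members had an unadjusted p under 0.05, a smaller share than the 2208 of 13446 kept rows with a mean of at least 20. The count of members that fell was 1 with edgeR and 1 with DESeq2, and HHIP-AS1 was the gene in both. Of all 15546 kept rows, 169 fell with edgeR and 342 with DESeq2. Without control library 3, 5 members rose (2.96%), against 5.45% of all kept rows.

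**Figure D1:**
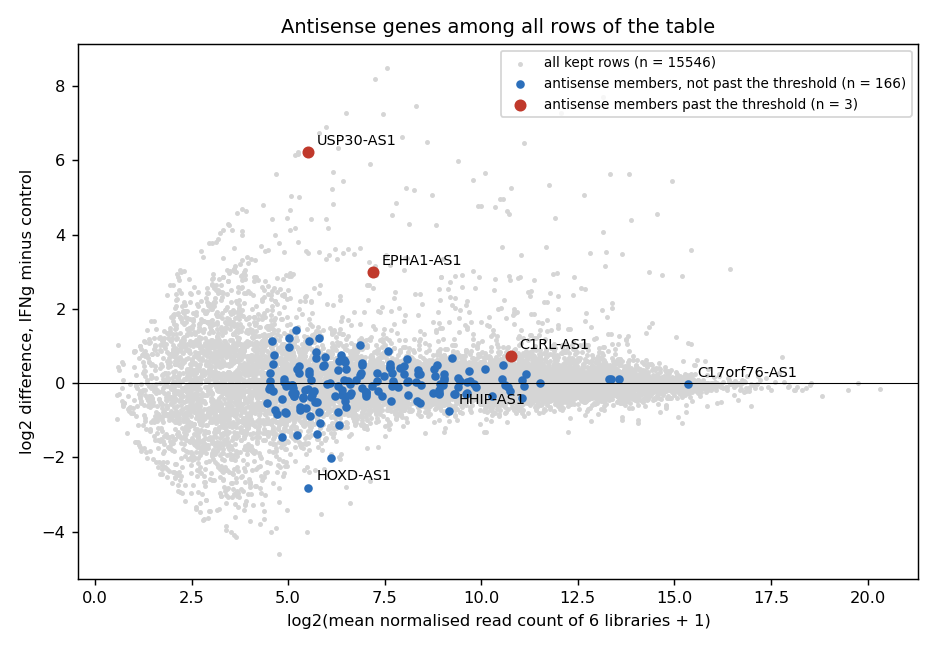
Log2 difference between IFNg and control (y axis) against the log2 of 1 plus the average level over 6 libraries in normalised read counts (x axis) for 15546 kept rows (grey), 166 antisense members that did not pass (blue) and the 3 that did (red). USP30-AS1 (6.23) and EPHA1-AS1 (2.99) stand above the other members, most of which lie within 0.5 of zero.

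The log2 difference was under 0.5 in size in 122 of the 169 members and at least 1 in 15. The median was -0.03 (quartiles -0.31 and 0.28), against -0.01 (quartiles -0.17 and 0.16) over kept rows with a mean of at least 20. The median standard error of the log2 difference was 0.42 for members and 0.15 for those rows. It was 0.57 in the 84 members with means of 20 to 100, 0.29 in the 68 with means of 100 to 1000 and 0.14 in the 17 above. One member was called in each of these 3 ranges. All 3 IFNg libraries lay above all 3 control libraries in 14 members and below them in 14, where the shares over rows with a mean of at least 20 were 11.5% and 9.59%. Of the 169 members, 7 reached a mean of 20 in IFNg cells but not in control cells, USP30-AS1 among them, and 5 did so in control cells only. With members chosen by a control mean of at least 20, or by a mean of at least 50, 2 rose, since USP30-AS1 is then not a member.

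EPHA1-AS1 lies on the strand opposite to EPHA1, a receptor tyrosine kinase gene, with no shared exon base. The nearest GENCODE transcript starts of the pair are 163 bases apart, while the starts of their RefSeq windows are 1043 bases apart. It was read at 301.03, 258 and 214 in IFNg cells, against 34.3, 20.9 and 42.8 in control cells. Every IFNg library was above every control library, and the IFNg mean was 7.90 times the control mean (log2 difference 2.99 ± 0.41 SE, limma adjusted p = 0.00075). The call held without each library in turn and in the other fits tried. EPHA1 itself was barely read, at 4.65, 7.23 and 4.63 in IFNg cells and 12.9, 0 and 0.973 in control cells (adjusted p = 0.76). The other rows within 100000 bases were ZYX, encoding the focal adhesion protein zyxin (log2 difference -0.13, adjusted p = 0.665), and FAM131B (0.08, adjusted p = 0.893).

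USP30-AS1 lies opposite USP30, which encodes a deubiquitinase of the mitochondrial outer membrane that restrains mitophagy. It had 0 reads in every control library and was read at 64.1, 38.2 and 164 in IFNg cells. IFNg library 3 was the highest, with more than the other IFNg libraries together. Pooled over the IFNg libraries, the 248 reads of USP30-AS1 stood at 89.8 times a floor of 3 reads over the control group, after size factors. The fitted log2 difference, which depends on the pseudocount, was 6.23 ± 0.88 (limma adjusted p = 0.00104). The floor covers counting error in the control group only, not error in the IFNg reads or the spread among libraries. USP30 was read at 1109, 1007 and 817 in IFNg cells and 834, 872 and 778 in control cells, groups that overlapped (0.23 ± 0.17, adjusted p = 0.591). GENCODE exons of USP30-AS1 share 233 of their 656 bases with USP30 exons, and the control libraries held 2622 USP30 reads beside the 0 of USP30-AS1. Sharing of reads within this pair was not tested. Of 5 rows within 100000 bases, 0 passed. The nearest to the threshold was UNG, the uracil DNA glycosylase gene, at 4961 ± 750 in IFNg cells and 3107 ± 947 in control cells (adjusted p = 0.053).

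C1RL-AS1 and C1RL rose together and were the only pair in which both rows passed. C1RL encodes a serine protease related to complement C1r, and the nearest GENCODE transcripts of the pair start 5 bases apart on opposite strands, with 205 exon bases shared. The starts of their RefSeq windows are 906 bases apart. C1RL-AS1 was read at 2112, 1903 and 2456 in IFNg cells, against 1307, 1249 and 1356 in control cells (log2 difference 0.72 ± 0.13, limma adjusted p = 0.00845). C1RL was read at 2583, 2990 and 2107 in IFNg cells, against 1505, 1639 and 1629 in control cells (0.67 ± 0.14, adjusted p = 0.0183). Groups did not overlap in either row. The C1RL-AS1 to C1RL log2 ratio was -0.24 ± 0.44 in IFNg cells and -0.29 ± 0.10 in control cells (SD, n = 3 each), a difference of 0.05 (exact permutation p = 0.9, 2-sided).

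Of 6 rows within 100000 bases of C1RL-AS1, 3 rose, C1RL among them, and the complement genes C1R and C1S rose by far more. C1R was at 2522 ± 289 in IFNg cells and 93.3 ± 9.22 in control cells (log2 difference 4.74, limma adjusted p = 1.91e-08). C1S was at 1965 ± 455 in IFNg cells and 79.3 ± 51.2 in control cells (4.77, adjusted p = 5.57e-06). Both encode the proteases of the first complement component. The rows CLSTN3 (0.46, limma adjusted p = 0.0555), PEX5 (-0.19, 0.628) and LPCAT3 (-0.03, 0.97) did not pass. The C1RL-AS1 call was lost without control library 2 (adjusted p = 0.0511) and without a variance trend (0.0698), and that of C1RL without control library 1 or 2 or IFNg library 1 or 2 (up to 0.113) and without the trend (0.142).

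**Figure D2:**
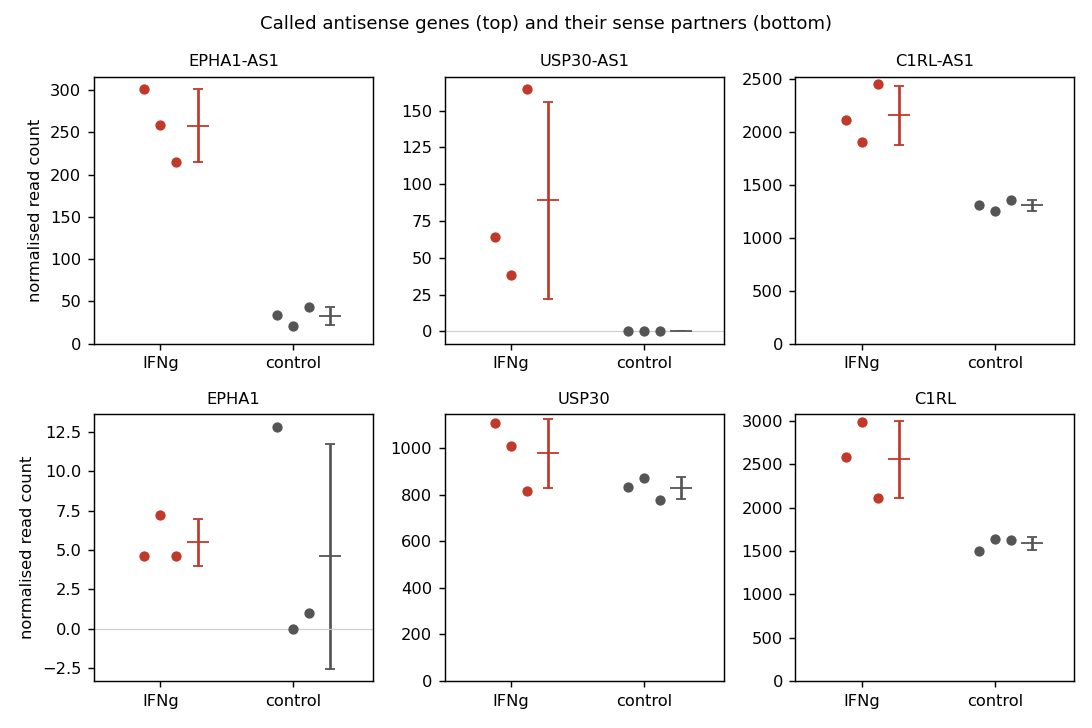
Levels of single libraries in normalised read counts (y axis, linear scale) in IFNg (red, left) and control (grey, right) for the 3 called antisense genes in the top panels and their sense partners below, with the mean and SD of 3 libraries beside the points. EPHA1-AS1 and USP30-AS1 separate the groups while EPHA1 and USP30 overlap, and C1RL-AS1 and C1RL are both higher in every IFNg library.

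Promoter windows from RefSeq (GRCh38.p14, 250 bases before to 50 after a start) were searched on both strands for the GAS letters TTCNNNGAA and the ISRE core, which is GAAA, any 2 bases and GAAA again. The windows below belong to pairs on which these results turn, that of HLA-F having been added once its match was seen. Capitals mark a match, except in HHIP-AS1, where they mark the 236 bases that also lie in the window of HHIP.
EPHA1-AS1, chr7:143407563-143407862, plus strand: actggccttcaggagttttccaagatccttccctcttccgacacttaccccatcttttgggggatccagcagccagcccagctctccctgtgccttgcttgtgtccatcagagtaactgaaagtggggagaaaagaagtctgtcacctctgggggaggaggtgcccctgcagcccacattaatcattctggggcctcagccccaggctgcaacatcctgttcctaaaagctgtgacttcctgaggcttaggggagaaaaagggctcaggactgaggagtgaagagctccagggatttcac
C1RL-AS1, chr12:7108058-7108357, plus strand: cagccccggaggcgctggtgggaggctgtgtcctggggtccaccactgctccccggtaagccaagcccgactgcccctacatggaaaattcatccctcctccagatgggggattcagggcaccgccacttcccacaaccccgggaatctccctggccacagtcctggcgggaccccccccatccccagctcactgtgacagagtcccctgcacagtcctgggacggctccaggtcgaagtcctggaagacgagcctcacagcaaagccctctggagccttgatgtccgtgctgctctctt
C1RL, chr12:7109165-7109464, minus strand: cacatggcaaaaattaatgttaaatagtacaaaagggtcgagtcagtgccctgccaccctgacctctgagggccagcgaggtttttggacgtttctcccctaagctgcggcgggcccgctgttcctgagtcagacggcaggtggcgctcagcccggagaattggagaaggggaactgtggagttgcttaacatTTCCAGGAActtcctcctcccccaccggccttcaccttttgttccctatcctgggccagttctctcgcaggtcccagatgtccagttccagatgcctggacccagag
HHIP-AS1, chr4:144645970-144646269, minus strand: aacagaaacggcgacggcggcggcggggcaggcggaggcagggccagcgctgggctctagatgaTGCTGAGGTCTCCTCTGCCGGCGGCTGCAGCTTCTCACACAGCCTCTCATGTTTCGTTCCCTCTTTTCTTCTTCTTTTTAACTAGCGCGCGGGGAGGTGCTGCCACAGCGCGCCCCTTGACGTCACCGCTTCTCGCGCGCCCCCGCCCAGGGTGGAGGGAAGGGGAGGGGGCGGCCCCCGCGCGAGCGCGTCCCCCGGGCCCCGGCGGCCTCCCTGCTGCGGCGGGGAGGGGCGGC
HLA-F, chr6:29723184-29723483, plus strand: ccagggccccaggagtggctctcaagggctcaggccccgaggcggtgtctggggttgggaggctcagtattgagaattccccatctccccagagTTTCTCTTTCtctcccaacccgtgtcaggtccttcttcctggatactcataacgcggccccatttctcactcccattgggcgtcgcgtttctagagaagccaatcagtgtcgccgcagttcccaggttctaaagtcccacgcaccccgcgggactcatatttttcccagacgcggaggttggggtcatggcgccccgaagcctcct

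The C1RL window held 1 GAS match, TTCCAGGAA, whose first base lies 57 bases before the start, and the HLA-F window held 1 ISRE core match. The windows of EPHA1-AS1, C1RL-AS1 and HHIP-AS1 held neither set of letters, which says only that these letters are not in these windows. Windows were found for 126 of the 169 members, USP30-AS1 not among them. Of the 161 windows of members, 5.59% held the GAS letters and 3.73% the ISRE core, against 7.66% and 3.57% of all 35116 windows. Of the 213 windows of sense partners, 4.69% held the GAS letters and 4.69% the ISRE core. Among the other called partners, the windows of TTN and LARS2, which rose, and of HHIP, KDM5B, KDM4A and FRMD6, which fell, held neither. No window was found for A2M or CBR3, which rose. The matches in C1RL and HLA-F are thus single matches, and whether they bear on the rise of either gene was not tested.

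In 9 pairs the sense partner passed the test and the antisense gene did not. These pairs were picked out by that difference, so the contrast within each is a description. The partner rose in 5 of them and fell in 4. Over the 156 partners that could be tested, 6 rose and 4 fell, or 6.41%, near the 4.92% of rows with a mean of at least 20.

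TTN, which encodes the giant sarcomere protein titin, had the strongest statistical support among partners. It was read at 1584, 1361 and 1787 in IFNg cells, against 268, 173 and 154 in control cells (log2 difference 3.02 ± 0.24, limma adjusted p = 5.64e-06). TTN-AS1 was read at 2187, 2190 and 2082 in IFNg cells and 2436, 2287 and 2111 in control cells. The TTN-AS1 groups overlapped and nearly coincided in level (-0.08 ± 0.11, adjusted p = 0.824). In GENCODE, 11381 exon bases of TTN-AS1 overlap TTN exons, and how reads of these bases were counted is not known. The log2 ratio of TTN-AS1 to TTN was 0.46 ± 0.23 in IFNg cells and 3.56 ± 0.33 in control cells (SD, n = 3 each). Its difference of -3.10 has the smallest exact permutation p that 3 against 3 libraries allow, 0.1 (0.2 adjusted over the 16 pairs compared).

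HLA-F and A2M rose beside antisense genes that did not pass. HLA-F, a nonclassical MHC class I gene, was read at 153, 184 and 226 in IFNg cells, against 34.3, 18.4 and 5.84 in control cells (3.48 ± 0.60, limma adjusted p = 0.00447, but 0.0791 without a variance trend). Reads of HLA-F may be shared with other HLA genes. HLA-F-AS1 was read at 42.7, 79.6 and 110.05 in IFNg cells and 51.4, 25.05 and 21.4 in control cells, where control library 1 lay above IFNg library 1 (1.23 ± 0.55, adjusted p = 0.32).

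A2M, which encodes the protease inhibitor alpha-2-macroglobulin, had 0 reads in control cells and 31.6, 17.6 and 22.01 normalised counts in IFNg cells. Its 70 IFNg reads, pooled, stood at 25.3 times the same floor of 3 control reads. The limma call (adjusted p = 0.0199) was lost without any 1 of the IFNg libraries (up to 0.122). A2M-AS1 was read at 13.01, 51.7 and 25.5 in IFNg cells and 24.6, 11.7 and 45.7 in control cells, with no separation of the groups (0.12 ± 0.72, adjusted p = 0.967).

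HHIP, whose product binds hedgehog ligands and dampens their signalling, fell, and HHIP-AS1 had a log2 difference of similar size that did not pass. HHIP was read at 5698, 5465 and 5669 in IFNg cells, against 8749, 8234 and 9679 in control cells (-0.66 ± 0.09, limma adjusted p = 0.00102). HHIP-AS1 was read at 452, 371 and 467 in IFNg cells, against 681, 667 and 814 in control cells. Both rows were lower in each IFNg library than in any control library, but HHIP-AS1 narrowly missed the threshold (-0.75 ± 0.20, adjusted p = 0.0553). HHIP-AS1 passed in 4 of 16 alternatives. These were edgeR (0.0342), DESeq2 (0.00593), leaving out rows with a mean under 20 (0.04) and adding replicate number to the design (0.0175). It did not pass with any 1 library left out (limma adjusted p up to 0.205). The difference between antisense and sense was -0.09 (exact permutation p = 0.5).

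KDM4A, a histone demethylase gene, fell, and KDM4A-AS1, with a positive log2 difference, did not pass. KDM4A was read at 4162, 4360 and 4966 in IFNg cells, against 6279, 5801 and 6482 in control cells (-0.46 ± 0.10, limma adjusted p = 0.0237). KDM4A-AS1 was read at 198, 297 and 236 in IFNg cells, against 110.3, 109 and 192 in control cells (0.86 ± 0.33, adjusted p = 0.229). Every IFNg library of KDM4A-AS1 was higher than every control library, by little between IFNg library 1 and control library 3. The log2 ratio of the pair was -4.22 ± 0.30 in IFNg cells and -5.54 ± 0.41 in control cells, a difference of 1.32 with the smallest exact permutation p possible, 0.1 (0.2 adjusted over the 16 pairs). The KDM4A call was lost without control library 1 or 2 or IFNg library 1 or 2 (adjusted p up to 0.138) and without a variance trend (0.154).

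The other partners that passed were LARS2, KDM5B, FRMD6 and CBR3. LARS2, encoding the mitochondrial leucyl-tRNA synthetase, rose (0.52 ± 0.10, limma adjusted p = 0.00968), while LARS2-AS1 was read at 39.02, 45.5 and 38.2 in IFNg cells and 85.7, 41.8 and 56.5 in control cells (adjusted p = 0.691). KDM5B, another histone demethylase gene, fell (-0.69 ± 0.10, adjusted p = 0.00166), and KDM5B-AS1 was low in both groups (-0.15 ± 0.73, adjusted p = 0.958). FRMD6, a FERM domain gene, fell (-0.49 ± 0.11, adjusted p = 0.0306), and FRMD6-AS1 was read at 210.0, 306 and 297 in IFNg cells and 252, 281 and 258 in control cells (0.02 ± 0.26, adjusted p = 0.984). CBR3, a carbonyl reductase gene named here after its values were seen, rose (1.13 ± 0.27, adjusted p = 0.0339), and CBR3-AS1 did not pass (1.03 ± 0.42, adjusted p = 0.256) although its groups did not overlap. Calls of LARS2, FRMD6 and CBR3 were each lost without some single libraries, with adjusted p up to 0.0617, 0.151 and 0.142, and all 4 partners' calls were lost without a variance trend (0.0616 to 0.253).

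**Figure D3:**
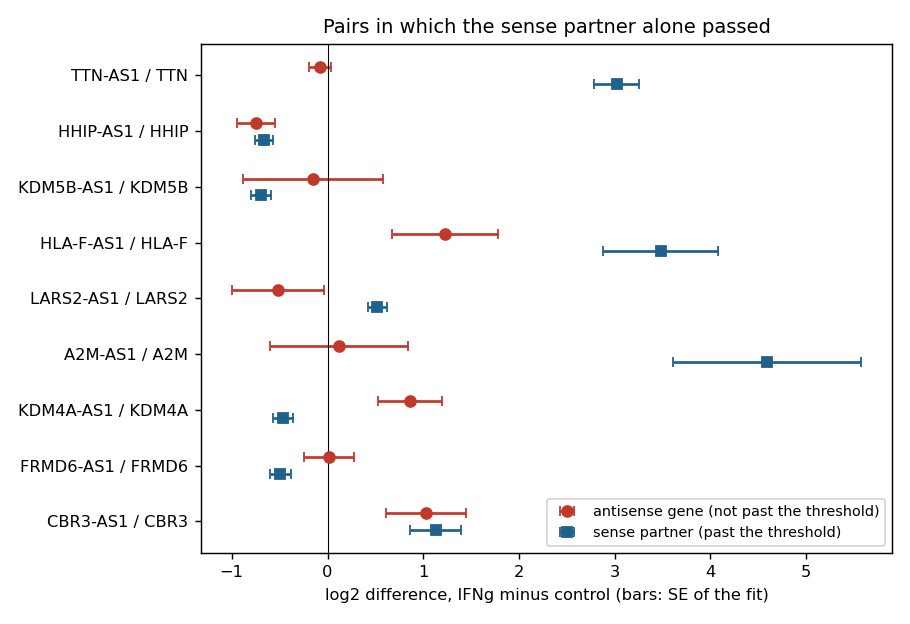
Log2 difference of IFNg minus control (x axis, bars showing the fitted standard error) for the 9 pairs in which the sense partner passed and the antisense gene did not, ordered by the partner's adjusted p from the top. TTN, HLA-F and A2M lie far to the right of their antisense genes, and HHIP and CBR3 lie beside theirs. KDM4A, LARS2 and FRMD6 lie on the other side of zero, with FRMD6-AS1 near zero, and KDM5B lies to the left of KDM5B-AS1.

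Across the 156 pairs with both rows kept, 1 had both rows called, 2 the antisense gene alone, 9 the partner alone and 144 neither. The log2 differences of antisense and sense genes correlated weakly over these pairs (Pearson r = 0.13, Spearman rho = 0.15), as a description across genes that share libraries and size factors. With starts within 1000 bases r was 0.22 over 103 pairs, and with starts further apart it was 0.08 over 49. By exons, r was 0.10 over 109 pairs that overlap and 0.33 over 43 that do not. Many of these genes have few reads. Among pairs with a mean of at least 100 in both rows, a limit set after the data were seen, r was 0.66 and rho 0.52 over 50 pairs with starts within 1000 bases. Without the 3 of these pairs whose partners differed most, CBR3, C1RL and HHIP, r was 0.42 and rho 0.42 over 47 pairs. Over 17 pairs with starts further apart r was -0.25 and rho -0.22. Without TTN they were -0.18 and -0.12 over 16 pairs. Within the 50, r was 0.74 over 34 pairs with overlapping exons and 0.46 over 16 pairs without, the reverse of the order over all pairs. The part of reads shared between strands in these values was not tested.

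**Figure D4:**
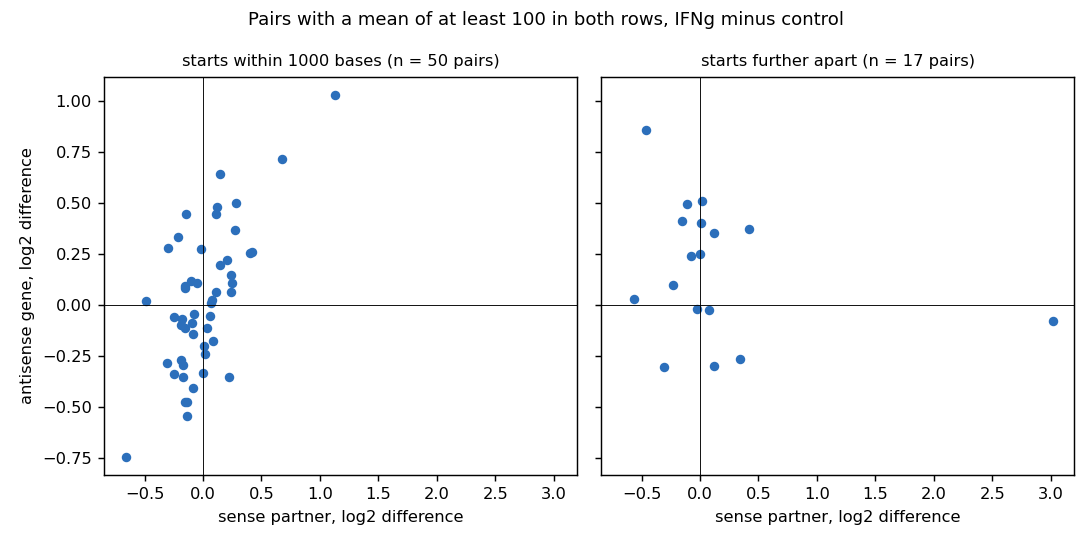
Log2 difference (IFNg minus control) of the antisense gene (y axis) against that of its sense partner (x axis) for pairs with a mean of at least 100 in both rows, 50 with starts within 1000 bases on the left and 17 with starts further apart on the right. The left panel slopes upward (r = 0.66), and the point far right in the right panel is TTN-AS1 with TTN.

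The most abundant members did not pass. C17orf76-AS1, now named SNHG29 and known as a host gene of small nucleolar RNAs, was read at 43931, 43135 and 37385 in IFNg cells and 46654, 44848 and 36613 in control cells (-0.04 ± 0.11, limma adjusted p = 0.925). Libraries numbered 3 were the lowest of both groups. UGDH-AS1 averaged 12463 ± 1352 in IFNg cells and 11575 ± 1411 in control cells (adjusted p = 0.728), WAC-AS1 10993 ± 2060 and 10053 ± 861 (0.753), FGD5-AS1 10470 ± 575 and 9732 ± 947 (0.669) and THAP9-AS1 2952 ± 307 and 2936 ± 368 (0.984). Per kilobase of GENCODE exon, UGDH-AS1 stood at 4312 and UGDH, which makes UDP-glucuronate, at 776. Antisense genes exceeded their partner on this per-kilobase scale in 31 of 152 pairs, and the median antisense level was 13.3% of the partner's. Gene models used for counting are not given, so these ratios are approximate.

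Grouped by the role of the partner, most members did not pass. With 4.92% of kept rows at a mean of at least 20 called, lists of 5 to 13 members are too short for their counts to say anything about the lists. Of 5 members listed beside immune and interferon-linked genes, 0 rose and 0 fell, although the partners HLA-F and A2M both rose. That list does not hold C1RL-AS1, which rose together with the complement-related gene C1RL, so its 0 depends on how the list was drawn. ITGB2-AS1, opposite the leukocyte integrin gene ITGB2, averaged 40.3 ± 13.5 in IFNg cells and 69.2 ± 20.6 in control cells (limma adjusted p = 0.521), and CD27-AS1 470.4 ± 18.02 and 418 ± 52.9 (0.769). Of 6 members beside proteasome and ubiquitin genes, USP30-AS1 rose and 0 fell. PSMG3-AS1, beside a proteasome assembly chaperone gene, averaged 63.0 ± 5.37 in IFNg cells and 39.8 ± 10.5 in control cells (0.556), and PSMD6-AS2 274 ± 85.8 and 203 ± 41.0 (0.615).

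Of 13 members beside transcription factor and homeobox genes, 0 rose and 0 fell. HOXD-AS1, now named HAGLR, had the most negative log2 difference of all members over the 6 libraries, with values of 28.8, 29.96 and 0 in IFNg cells, against 67.5, 93.5 and 48.7 in control cells. Its groups did not overlap, but the spread was wide (-2.82 ± 1.12, limma adjusted p = 0.243). The size of this difference rests on the 0 in IFNg library 3, without which it was -1.17 (adjusted p = 0.375). ZEB1-AS1, beside the gene of the mesenchymal factor ZEB1, averaged 928 ± 245 in IFNg cells and 725 ± 118 in control cells (0.522). Of 10 members beside RNA and translation genes and 7 beside cell division and genome maintenance genes, 0 rose and 0 fell. OIP5-AS1, known as Cyrano and conserved among vertebrates, averaged 2205 ± 389 in IFNg cells and 2057 ± 290 in control cells (0.844). The medians of the 5 lists ranged from -0.06 to 0.44, against -0.01 over kept rows with a mean of at least 20.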

How the data were processed

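RNA of 6 libraries of HT-1080 cells (3 IFNg, 3 control) was sequenced as paired ends of 50 cycles from ribosome-depleted, stranded total RNA, per the labels' protocols. FastQC 0.11.3, TopHat2 2.0.13, Cufflinks, Cuffdiff 2.2.1 and the build hg19 are named in the submitters' processing notes, and no source used here names the counter or its use of strand. The deposited signal values are labelled RPKM, but in every library 100% of values are whole reads divided by 1 size factor (tolerance 0.001 reads), so they are called normalised read counts and carry no length correction. The test planned for RPKM was kept.

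The 15546 of 17187 rows that reached 0.5 in 3 or more libraries were fitted with limma 3.58.1 (R 4.3.3) on log2(value + 1) with group alone in the design and a variance trend. P-values were adjusted by Benjamini-Hochberg over all kept rows at 0.05. Fold changes are on the log2(value + 1) scale, which understates changes of low genes. Alternatives included edgeR 4.0.16 and DESeq2 1.42.0 on the recovered whole reads, other pseudocounts, filters and scalings, and each library left out. Differences within 16 pairs were tested by 2-sided exact permutation, whose smallest p is 0.1. The fits were tested on simulated data.

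Exon overlap and start distances came from GENCODE 29, where 163 of 169 members were matched by symbol or RefSeq synonym. Promoter windows came from RefSeq GRCh38.p14 and were found for 126 of the 169. Files and annotation differ in build, so no position was taken from one to the other. The members and the lists were chosen with earlier results of these data known. Named genes were the called members and their partners, the 5 most abundant members, up to 8 uncalled members with a called partner, antisense rows nearest the level of 20, and up to 4 members a list. Values of 1 gene that this rule names are not reported here.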

Additional observations from a re-analysis of the deposited data

How the results depend on the processing

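EPHA1-AS1 and USP30-AS1 stayed past the threshold in each of 16 alternatives (adjusted p up to 0.0119 and 0.0187). Members called higher numbered 5 with the replicate block and 5 without both libraries numbered 3, against 3 in the limma fit of all 6 libraries, and 2 to 5 when 1 library was left out. Members called lower numbered 1 with a filter on a mean of at least 20, 1 with edgeR, 1 with DESeq2 and 4 with the replicate block, and 0 to 0 when 1 library was left out. Choosing members by a level of 10 gave 3 higher and 0 lower, and a level of 50 or a control mean of 20 gave 2 higher and 0 lower, since USP30-AS1 then drops out. Over all kept rows, 509 were higher and 163 lower, against 915 and 549 with the block, 714 and 342 with DESeq2, 279 and 41 without a variance trend, 882 and 599 without both libraries numbered 3, and 330 to 847 and 37 to 455 when 1 library was left out. Whether shared replicate numbers stand for pairs cannot be settled from these values. Deviations of same-numbered libraries correlated at 0.04, 0.02 and 0.11, and those of differently numbered libraries at -0.07 to 0.03. The highest value was that of the libraries numbered 3, while IFNg library 2 correlated best with control library 1. A shared effect of replicate number was thus not excluded, and the main fit leaves it out. The antisense minus sense difference of USP30-AS1 was 6.99 and 3.77 with pseudocounts of 0.5 and 5, and that of A2M-AS1 was -2.39 with 5. Of the log2 differences of named genes, 32 values across the alternatives lost a call and 7 gained one. Another 26 values, of genes called in neither fit, changed sign. With 1 library left out, the log2 difference ranged from -0.14 to 0.036 for C17orf76-AS1, -0.028 to 0.23 for WAC-AS1, -0.068 to 0.11 for THAP9-AS1, -0.071 to 0.25 for THAP9, -0.53 to 0.50 for KDM5B-AS1, -0.36 to 0.59 for A2M-AS1, -0.078 to 0.19 for FRMD6-AS1, -0.045 to 0.20 for OIP5-AS1 and -0.19 to 0.066 for TRAF3IP2-AS1. Without both libraries numbered 3 it was -0.050 for UGDH-AS1, -0.082 for THAP9-AS1, -0.085 for THAP9, 0.55 for KDM5B-AS1 and -0.071 for FRMD6-AS1, and for KDM5B-AS1 it was 0.063 with edgeR and 0.065 with DESeq2. Leaving out the pairs with the largest partner differences, from the correlations over pairs, was chosen after seeing the data. The cause of these changes was not tested. By level, the median standard error was 0.57 for means of 20 to 100 and 0.14 for means over 1000.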
